A study of Drosophila melanogaster with 212 samples.

Results

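The neurons described here were octopaminergic or tyraminergic cells from the brain of Drosophila melanogaster that also held RNA of VGlut, the vesicular glutamate transporter. The deposited single cells were 54 of nervy-mutant females, 51 of wild-type females, 56 of nervy-mutant males and 51 of wild-type males. All but 13 of them had at least 10000 counts and at least 500 genes with a read. Of the remaining 51, 48, 52 and 48 cells, 50, 44, 47 and 43 had at least 100 CPM, a count scaled to the library's total, of Tdc2, the tyrosine decarboxylase that makes tyramine in neurons. Among these, 175 had at least 100 CPM of VGlut and are called VGlut-high, 7 had under 10 CPM and are called VGlut-low, and 2 lay between. Columns of 1 group with nearly identical values were averaged and counted once, which left 166 VGlut-high cells, 7 VGlut-low cells and the 2 between. The cells were chosen by their values of Tdc2 and VGlut, so both genes are given as descriptions and neither was tested.

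The VGlut-high cells were 43 from nervy-mutant females, 42 from wild-type females, 43 from nervy-mutant males and 38 from wild-type males. The VGlut-low cells were 5 from nervy-mutant females and 2 from wild-type females. Every cell, wild type included, carried a green fluorescent protein on its membrane as a reporter and was sorted by its fluorescence from flies housed 15 to a vial until day 6. The labels gave neither the nervy allele nor the promoter that drove the reporter. They named no animal, so each group of genotype and sex was 1 sample, its cells were not replicates, and no test between genotypes was possible.

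Octopamine is the insect counterpart of noradrenaline. Neurons make tyramine from tyrosine with Tdc2, turn it into octopamine with the tyramine beta-hydroxylase Tbh, and load both amines into vesicles with the vesicular monoamine transporter Vmat. VGlut loads glutamate into synaptic vesicles, and a neuron that holds VGlut beside these enzymes can in principle release a fast transmitter and an amine. Release of glutamate from octopaminergic neurons of the fly is known, and it has been linked to courtship and aggression in males.

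Reads per cell ranged from 20875 to 3045780 in VGlut-high cells, with a median of 897912, and from 326169 to 2824296 in VGlut-low cells, with a median of 667480. The VGlut-high cells summed to between 33313645 and 46957079 reads per group. The gene altered in the mutants, nvy, stood at 7.61 CPM (95% counting interval 6.72 to 8.62) in the summed VGlut-high cells of mutant females, against 15.8 CPM (14.6 to 17.1) in those of wild-type females. In males it stood at 7.44 CPM (6.69 to 8.28) in mutants, against 17.5 CPM (16.2 to 18.8) in wild type, and 38 of the 166 cells had 10 CPM or more. In VGlut-low cells its order went against the labels, at 33.7 CPM (27.9 to 40.5) in cells labelled mutant females, against 0 in those labelled wild-type females, which allows up to 0.859 CPM. All of it came from MFB42, at 113.85 CPM, so that nvy gives no check of the genotype labels of these 7 cells. The male-specific RNA roX1 was read at 10 CPM or more in all 81 male VGlut-high cells, in 2 of 85 female ones and in no VGlut-low cell. Of 19 pairs of nearly identical columns, 16 were pairs of VGlut-high cells, 7 of them joining a cell labelled mutant with one labelled wild type, and none held a VGlut-low cell. Both cells of those 7 pairs are among the 166, 1 under each label, so a genotype label of each pair is in doubt, and values without any cell of a pair (143 cells) are given beside the group medians.

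VGlut was present at a substantial level in nearly every one of these neurons. The transcript counted for it spans 2L from 2391660 to 2410662 on the plus strand of dm6, and 0.682% of its exon bases are shared with CG18641. In VGlut-high cells it ranged from 112.99 to 4598 CPM, with a median of 1069 CPM. The medians of the female groups were 909 CPM in mutants and 1149 CPM in wild type, and those of the male groups 1111 CPM in mutants and 1266 CPM in wild type. Without any cell of a nearly identical pair, they were 882 CPM in mutants and 1109.5 CPM in wild type for females, and 1015 CPM in mutants and 1050 CPM in wild type for males. The ranges of the 4 groups overlapped almost throughout, so the cells of a group differed far more among themselves than the group medians did.

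Summed over cells, VGlut stood at 932 CPM (counting interval 921 to 942) in mutant females, against 1252 CPM (1241 to 1263) in wild-type females, and, for males, at 1077 CPM (1067 to 1086) in mutants, against 1266 CPM (1256 to 1277) in wild type. Both sums were lower in mutants, a difference with no replicate behind it. The column headers also carry running numbers, and all mutant female cells were numbered above 96. Among cells numbered above 96 the medians were 909 CPM in mutant females, against 1188 CPM in wild-type females, and 1338 CPM in mutant males, against 1291 CPM in wild-type males. Among those numbered 1 to 96 they were 932 CPM in mutant males, against 1041 CPM in wild-type males, and 1045 CPM in 3 wild-type female cells. Within males the order of mutant and wild type therefore differed between the 2 ranges of numbers.

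Per kilobase of the counted transcript, the summed VGlut level was 158.1 to 214.9 CPM over the 4 groups of VGlut-high cells. On that scale Tdc2 stood at 2248 to 2624, Tbh at 3155 to 4367 and Vmat at 12058 to 13743 CPM per kilobase. RNA of the glutamate transporter was thus well below that of the amine enzymes and the amine transporter in the same cells. Across the 166 cells, VGlut had rank correlations of -0.002 with reads per cell, 0.061 with Tdc2 and 0.074 with Vmat. The 13 VGlut-high cells with under 100 CPM of Tbh had a median VGlut of 1411 CPM (881 to 2827), against 1045 CPM in the 153 cells with more Tbh.

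**Figure D1:**
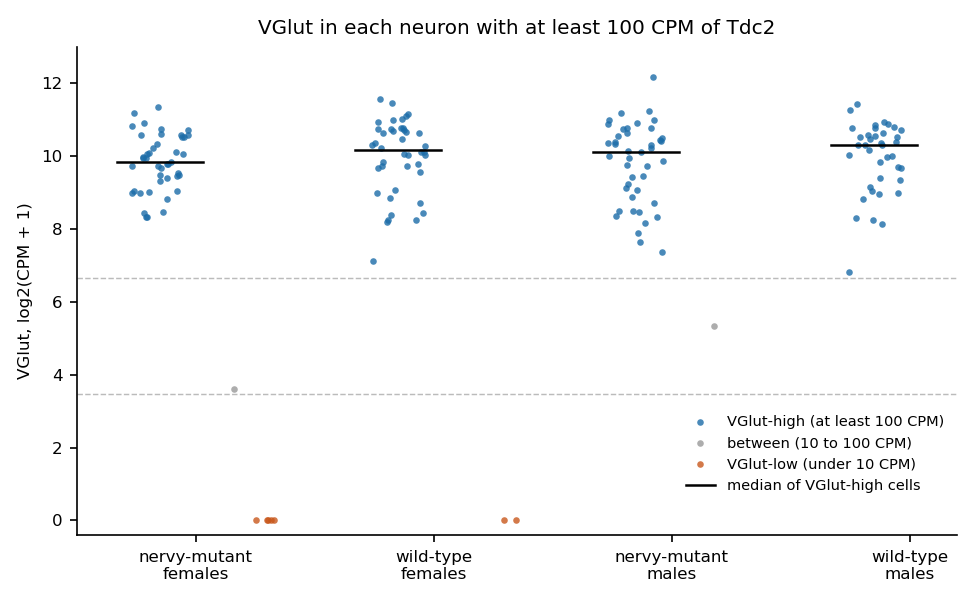
VGlut of each neuron with at least 100 CPM of Tdc2, as log2(CPM + 1), by genotype and sex, with dashed lines at 10 and 100 CPM and a bar at the median of the VGlut-high cells. The 7 VGlut-low cells lie at 0 and are all from females, and the 2 cells between the dashed lines lie well apart from the 166 cells above.

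Few Tdc2 cells had low VGlut, and values near the thresholds are given here as a description. The 5 VGlut-high cells nearest the threshold had 112.99, 138.6, 164, 197.8 and 236.2 CPM. The 2 cells between had 39.5 CPM (mutant male MMD6, 17 counts) and 11.2 CPM (mutant female MFB47, 8 counts). All 7 VGlut-low cells had no read of VGlut at all, and their depths allow at most 1.06 to 9.20 CPM at 3 counts. In the plot of VGlut in each neuron every VGlut-low cell lies at the foot of the axis.

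VGlut-high cells made up 87.8% (exact binomial interval 75.2 to 95.4) of the Tdc2 cells of mutant females and 95.5% (84.5 to 99.4) of those of wild-type females. In males the shares were 97.7% (87.98 to 99.9) in mutants and 100% (90.7 to 100) in wild type, and over all cells 94.9% (90.5 to 97.6). VGlut-low cells were 5 of 49 Tdc2 cells in mutant females, or 10.2% (3.40 to 22.2), against 2 of 44 in wild-type females, or 4.55% (0.555 to 15.5). These intervals cover the counting of cells alone, and a difference between genotypes could not be tested with 1 sample per group. In males there were 0 of 44 in mutants and 0 of 38 in wild type, with exact intervals that reach 8.04% and 9.25%. Over both genotypes VGlut-low cells were 7 of 93 in females (3.08 to 14.9%) and 0 of 82 in males (0 to 4.40%). Of the VGlut-low cells, 6 were numbered above 96 and 1 below, and these shares could not be compared within females numbered 1 to 96, where only 4 cells with Tdc2 remained.

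Tdc2 and Vmat were read at similar levels in both kinds of cell. Tdc2 summed to 5751 CPM in VGlut-high and 5708 CPM in VGlut-low cells of mutant females, and to 6017 and 5811 CPM in wild-type females. Vmat summed to 95130 CPM in VGlut-high and 80747 CPM in VGlut-low cells of mutant females, and to 100514 and 85531 CPM in wild-type females. For Vmat 26.2% of the exon bases are shared with CG13330. The synaptic vesicle protein gene nSyb was alike as well, at 3384 CPM in VGlut-high and 3475 CPM in VGlut-low cells of mutant females and 3363 and 2804 CPM in wild-type females.

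Tbh separated 1 cell from the other VGlut-low cells. In female VGlut-high cells it ranged from 0 to 35546 CPM with a median of 15364 CPM. It stood at 13751, 11093, 11496 and 10452 CPM in 4 mutant female VGlut-low cells and at 12450 and 11413 CPM in the 2 wild-type ones, but at 0 in the mutant female cell MFB42. The log2 ratio of the sums, VGlut-high over VGlut-low, was 0.79 in mutant females and 0.50 in wild-type females. By RNA, 6 of the 7 VGlut-low cells were thus octopaminergic, and MFB42 held the genes for tyramine but no Tbh. MFB42 also had 7865 CPM of Tdc2, the most of the 7.

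To find which other genes went with VGlut, reads were summed over the VGlut-high and over the VGlut-low cells of each female group, the only groups with both kinds. Of 5354 genes that averaged 20 CPM or more, 77 (1.44%) were at least 4-fold higher in VGlut-high cells in both female groups, on the scale of CPM + 1, and 30 (0.560%) were at least 4-fold lower. In wild-type females 2824296 of the 3491775 reads summed over VGlut-low cells came from WFB2, so the wild-type ratios rested largely on 1 cell. Another 38 genes (0.710%) passed 4-fold in opposite directions. Both directions together held 107 genes (1.9985%), a share that was 3.17% without MFB42 and 2.55% among cells numbered above 96, where 1 VGlut-low cell was left in wild-type females. With the mean of per-cell log2(CPM + 1) in place of sums 118 genes passed, split into 36 higher and 82 lower, of which 32 were among the 107, while the median ratio over all genes moved to -0.24 from 0.03.

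A fit of both female groups was added after the data were seen, with the group as a block and 1 residual degree of freedom. By edgeR's quasi-likelihood test, 0 of the 5354 genes (0.00%) had an adjusted p under 0.05, 3.70% had an unadjusted p under 0.05, and the smallest adjusted p was 0.428. By DESeq2 371 genes (6.93%) passed, 179 of them higher and the others lower. The genes named below were therefore described by their sizes and by their values in single cells, and none passed edgeR's test.

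**Figure D2:**
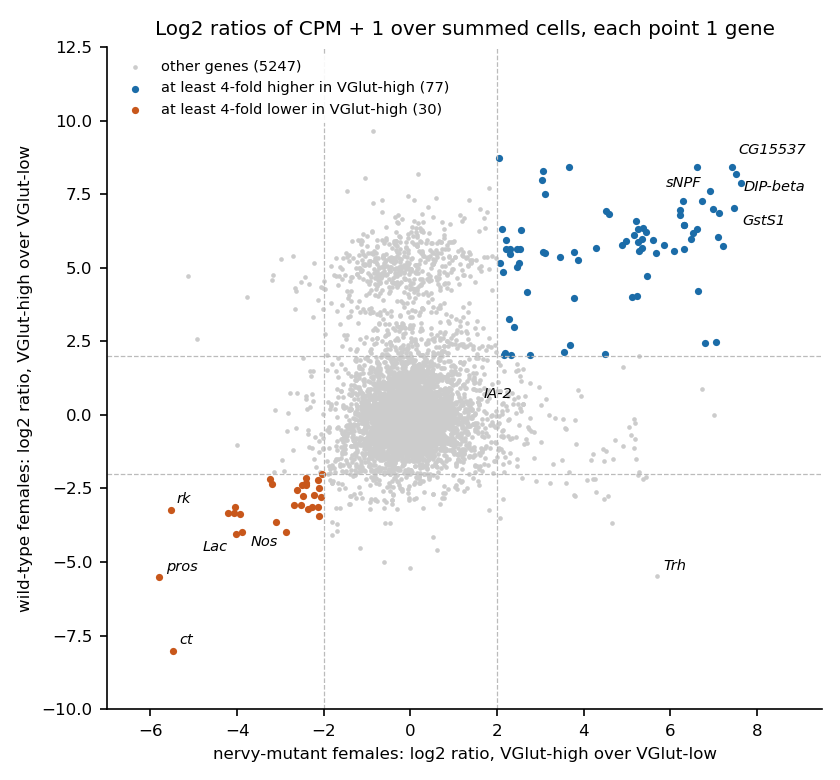
Log2 ratio of CPM + 1 in VGlut-high over VGlut-low cells, summed per group, in nervy-mutant females (x axis) and wild-type females (y axis), each point 1 of 5354 genes and dashed lines at 4-fold. Of the colored genes 77 lie at upper right and 30 at lower left, and Trh lies at lower right, at 5.69 in mutant and -5.48 in wild-type females.

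The plot of ratios in both female groups shows a dense centre and 2 colored corners. Points spread more widely along the wild-type axis, where the VGlut-low cells were 2, than along the mutant axis, where they were 5. Of the 5354 genes, 32 had no read in any of the 7 VGlut-low cells, and several of these lay in the upper right corner. Such genes passed the minimum mean of 20 CPM through VGlut-high cells alone. Their 4-fold calls, also in the lists below, therefore follow largely from that filter, and their ratios depend on the pseudocount. For these genes a lower bound is given, the summed female VGlut-high level over 3 counts in all female VGlut-low reads together, which is 0.433 CPM. It covers the counting of reads and not the sampling of 7 cells. A gene held by a minority of VGlut-high cells could be at 0 in 7 cells without a difference between the kinds.

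No gene of glutamate handling or of another transmitter passed 4-fold in 1 direction in both female groups. Of 6 tested genes for glutamate synthesis and uptake none passed 4-fold in both groups, with a median log2 ratio of 0.07 beside 0.03 over all genes. Got2, a mitochondrial aspartate aminotransferase, had log2 ratios of -0.63 in mutant and -1.43 in wild-type females. Gad1, the enzyme that makes GABA, reached 100 CPM in 5 of 85 female and 14 of 81 male VGlut-high cells and in 2 of 7 VGlut-low cells. The 4 tested genes of other transmitters had a median log2 ratio of 0.92, which was -0.05 in mutant and 2.34 in wild-type females. The vesicular GABA transporter VGAT reached 100 CPM in 31 of 85 female and 20 of 81 male VGlut-high cells and in 5 of 7 VGlut-low cells. Of the VGlut-low cells, MFB42 and MFB46 held both, at 137.5 and 118 CPM of Gad1 and 228.7 and 105 CPM of VGAT.

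Acetylcholine, dopamine and serotonin genes were rare in both kinds of cell. ChAT, which makes acetylcholine, reached 100 CPM in 1 of 85 female and 6 of 81 male VGlut-high cells and in 0 of 7 VGlut-low cells. The dopamine enzyme ple did so in 0, 1 and 0 cells in the same order, and Trh, which makes serotonin, in 2, 2 and 0. No gene of these other transmitters reached 100 CPM in all 7 VGlut-low cells.

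Of 12 tested genes for neuropeptides and their processing, 2 were at least 4-fold higher in VGlut-high cells, namely sNPF and Dh44, beside 1.44% of all genes. The median log2 ratio of the 12 was 1.11, or 0.77 with genes at 0 in VGlut-low cells set to their bound, beside 0.03 over all genes. sNPF, which encodes short neuropeptide F, was read at 10 CPM or more in 32 of 85 female and 29 of 81 male VGlut-high cells, and at 0 in all 7 VGlut-low cells. Its sums were 120 CPM in VGlut-high cells of mutant females and 195.2 CPM in those of wild-type females, at least 373-fold higher than in the VGlut-low cells (edgeR adjusted p = 0.639).

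Dh44, which encodes the diuretic hormone 44, was read in 34 of 166 VGlut-high cells, up to 18889 CPM. Among the VGlut-low cells it stood at 108.8, 37.5 and 88.9 CPM in 3 mutant female cells and at 0 in the other 4. In mutant females 6 of 43 VGlut-high and 3 of 5 VGlut-low cells held Dh44, and in wild-type females 11 of 42 and 0 of 2. The share of cells in mutant females thus went against the sums, which were higher through the level of Dh44 in few VGlut-high cells. Its log2 ratio was 2.05 in mutant females, while in wild-type females it was at 418 CPM in VGlut-high and at 0 in VGlut-low cells. Nplp1, a gene for neuropeptide-like precursors, had log2 ratios of 1.36 in mutant and 1.91 in wild-type females, short of 4-fold in both.

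Receptors for neuropeptides differed in both directions. Of 17 tested, 5 were at least 4-fold higher in VGlut-high cells (sNPF-R, MsR1, SIFaR, NPFR and AstC-R2), beside 1.44% of all genes, and 3 were at least 4-fold lower (Dh44-R2, rk and CCHa2-R), beside 0.560%. The median log2 ratio of the 17 was -0.57. The median receptor was read at 10 CPM or more in 37.6% of female VGlut-high cells, beside 78.8% over all genes. Genes read in fewer cells are more easily at or near 0 in 7 cells, so 1.44% is not a like share for this list. The receptor of short neuropeptide F, sNPF-R, was read at 10 CPM or more in 43 of 85 female and 46 of 81 male VGlut-high cells, and the myosuppressin receptor MsR1 in 47 and 42. Both were at 0 in all 7 VGlut-low cells, so that they were at least 289-fold (sNPF-R) and at least 199.8-fold (MsR1) higher in female VGlut-high cells.

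SIFaR, the receptor of the peptide SIFamide, was read in 50 of 85 female VGlut-high cells, and only MFD1 of the VGlut-low cells held any, at 9.20 CPM. NPFR, the receptor of neuropeptide F, was read in 22 and AstC-R2, a receptor of allatostatin C, in 30 of the 85, and no VGlut-low cell exceeded 0.177 CPM of NPFR or 3.36 CPM of AstC-R2. The mean log2 ratio of AstC-R2 was 4.56, and 5.51 without WFB2. In the single comparison left among cells numbered 1 to 96 the log2 ratio of NPFR was -0.24. These 5 genes were therefore each read in a share of VGlut-high cells and hardly at all in VGlut-low cells.

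The 3 receptors lower in VGlut-high cells were read in most VGlut-low cells. Dh44-R2, a receptor of the diuretic hormone 44, had a median of 3.12 CPM and a highest value of 374 CPM in female VGlut-high cells. It stood at 649, 496, 137, 562 and 429 CPM in the 5 mutant female VGlut-low cells and at 375 and 369 CPM in the 2 wild-type ones. The 137 CPM were those of MFB42, which held no Tbh. VGlut-high cells with under 100 CPM of Tbh had, for example, 374 CPM (WFB25), 298 CPM (MFB5) and 21.3 CPM (MMB25). In cells with little Tbh, Dh44-R2 was therefore not particular to low VGlut. Its log2 ratios were -4.21 in mutant and -3.34 in wild-type females (edgeR adjusted p = 0.639). It shares 33.2% of its exon bases with CG34234 and fdl, and 89.4% of those of CG34234 are shared with it, so that reads of Dh44-R2 and CG34234 cannot be told apart.

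The bursicon receptor rk was at 10 CPM or more in 6 of 85 female VGlut-high cells, with a highest value of 28.3 CPM. It stood at 235.2, 208.2, 0, 216.8 and 153 CPM in the mutant female VGlut-low cells (MFB15, MFB33, MFB42, MFB46 and MFD1) and at 108.6 and 12.7 CPM in the wild-type ones. Of its exon bases, 9.785% are shared with NimC2. The log2 ratios of rk were -5.54 in mutant and -3.22 in wild-type females, with a mean of -4.38 that was -5.27 without WFB2 and -3.77 without WFB16. CCHa2-R, a receptor of the peptide CCHamide-2, rested on fewer cells: it stood at 262.9 CPM in WFB16 and 0 in WFB2, and without WFB16 its mean log2 ratio was -0.86 in place of -3.70, while it was -2.98 without MFB15 and -4.89 without WFB2.

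Receptors for small transmitters gave 1 gene past 4-fold in each of 3 lists and 0 in another, beside 1.44% of all genes higher and 0.560% lower. Of 5 octopamine and tyramine receptors tested, Oct-TyrR, a receptor that responds to both amines, was lower in VGlut-high cells. It had a median of 0 and a highest value of 326 CPM in female VGlut-high cells, and stood at 195.997, 273.5, 700, 311 and 366 CPM in the mutant female VGlut-low cells and at 262.9 and 649 CPM in the wild-type ones. It was thus at 10 CPM or more in 33 of the 85 female and 29 of the 81 male VGlut-high cells and in every VGlut-low cell, MFB42 included. MFB42 held no Tbh, and VGlut-high cells with under 100 CPM of Tbh held Oct-TyrR too. It stood, for example, at 326 CPM in MFB5, 273.8 CPM in WFB28 and 33.7 CPM in MMB25. In cells with little Tbh it was therefore not particular to low VGlut. Its log2 ratios were -3.10 in mutant and -3.64 in wild-type females (edgeR adjusted p = 0.639).

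Among 9 glutamate receptors tested, only the metabotropic receptor mGluR passed 4-fold. It was read in 23 of 85 female and 28 of 81 male VGlut-high cells and in none of the 7 VGlut-low cells, at least 126.3-fold higher. The AMPA-type subunit gene GluRIA was read in both kinds, at 204.8 CPM in VGlut-high and 209.7 CPM in VGlut-low cells of mutant females and 145.2 and 80.8 CPM in wild-type females. Of 7 dopamine and serotonin receptors, 5-HT2B passed, read in 35 of 85 female VGlut-high cells and no VGlut-low cell. None of 14 GABA and acetylcholine receptors did, with a median log2 ratio of -0.16.

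Of 20 voltage-gated and leak channels, the potassium channel KCNQ was past 4-fold, with log2 ratios of -2.69 in mutant and -3.07 in wild-type females. Of its exon bases 27.4% are shared with other genes. The innexin shakB, a gap junction subunit of neurons, was the only gap junction gene tested. It was read in 82 of 85 female VGlut-high cells at a median of 158.4 CPM. In the VGlut-low cells it stood at 33.4, 50.7, 5.42, 108 and 0 CPM in mutant and 143.8 and 22.5 CPM in wild-type females, so that both kinds overlapped. Its mean log2 ratio was 2.18, and 1.36 without WFB2.

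Transcription factors also differed in both directions. Of 28 tested, 4 were at least 4-fold higher in VGlut-high cells (ara, caup, mirr and fru), beside 1.44% of all genes, and 3 were at least 4-fold lower (pros, ct and zfh1), beside 0.560%, and the median log2 ratio was 0.74, beside 0.03 over all genes. The Iroquois homeobox genes ara, caup and mirr were read at 10 CPM or more in 29, 33 and 29 of 85 female VGlut-high cells and in 27, 35 and 27 of 81 male ones. All 3 were at 0 in the 7 VGlut-low cells, which puts them at least 128-fold, 108-fold and 223.2-fold higher in female VGlut-high cells. They passed the 20 CPM minimum through VGlut-high cells alone. The median factor was read in 57.1% of female VGlut-high cells, beside 78.8% over all genes, so 1.44% is not a like share here either. The same held for the POU gene pdm3, outside the list, which was read in 33 female VGlut-high cells, and for salr, nub and pdm2, which were below the 20 CPM minimum.

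The sex-determination gene fru was read in 78 of 85 female VGlut-high cells, with a median of 226.2 CPM, and in 57 of 81 male ones, with a median of 32.3 CPM. Of the VGlut-low cells, MFB42 had 152 CPM, WFB2 had 34.7 CPM and the other 5 had 0. Its log2 ratios were 2.69 in mutant and 4.16 in wild-type females, with a mean of 3.43 that was 6.19 without MFB42 and 5.86 without WFB2. Most female VGlut-high neurons thus held fru, and most VGlut-low neurons did not.

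The factors higher in VGlut-low cells were read in a minority of female VGlut-high cells. The homeobox gene pros, Prospero, had a median of 0.286 CPM and a highest value of 194.7 CPM in female VGlut-high cells, and was at 10 CPM or more in 22 of 85 female and 37 of 81 male ones. It stood at 1004, 1009.6, 0, 512 and 958 CPM in the mutant female VGlut-low cells (MFB15, MFB33, MFB42, MFB46 and MFD1) and at 954 and 520 CPM in the wild-type ones, so that 6 of the 7 VGlut-low cells lay above all 85. The log2 ratios of pros were -5.79 in mutant and -5.52 in wild-type females (edgeR p = 0.00011, adjusted p = 0.428). Male VGlut-high cells reached higher, with 12 of the 166 cells of both sexes at or above the lowest of the 6.

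Cut, the homeobox gene ct, was at 10 CPM or more in 3 of 85 female and 10 of 81 male VGlut-high cells. It stood at 289, 157.6, 0, 96.1 and 150 CPM in the same mutant female VGlut-low cells and at 129 and 288 CPM in the wild-type ones. The zinc-finger homeobox gene zfh1 was at 10 CPM or more in 8 of 85 female and 12 of 81 male VGlut-high cells, and at 60.5 CPM or more in all 7 VGlut-low cells. Unlike pros and ct, zfh1 was also read in MFB42, at 110.4 CPM, and its mean log2 ratio was -2.71, or -3.34 without WFB2.

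Cell-surface proteins of the Dpr and DIP families, immunoglobulin proteins that bind each other across synapses, gave 4 of 24 tested genes at least 4-fold higher in VGlut-high cells, beside 1.44% of all genes, and 0 lower, beside 0.560%. DIP-beta was read in 34 of 85 female and 25 of 81 male VGlut-high cells, DIP-delta in 43 and 41, and DIP-epsilon in 14 and 13. All 3 were at 0 in the 7 VGlut-low cells and passed the minimum mean of 20 CPM through VGlut-high cells alone. dpr20 was the most widely read, in 67 of 85 female cells at a median of 265.6 CPM and in 64 of 81 male cells. Among VGlut-low cells only MFB46 held dpr20, at 18.998 CPM, and its mean log2 ratio was 7.52, or 8.42 without MFB46. DIP-beta was at least 555-fold higher in female VGlut-high cells (edgeR adjusted p = 0.639), and the median log2 ratio of the 24 genes was 0.31.

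Of 54 axon guidance and adhesion genes, 3 were at least 4-fold higher in VGlut-high cells (Con, beat-Ic and beat-IIa), beside 1.44% of all genes, and 2 lower (beat-IIIc and Dscam2), beside 0.560%, with a median log2 ratio of 0.49. Con, which encodes the leucine-rich repeat adhesion protein Connectin, was read in 67 of 85 female and 62 of 81 male VGlut-high cells and, of the VGlut-low cells, in MFB42 at 60.1 CPM. Its mean log2 ratio was 6.05, or 8.17 without MFB42, and that of beat-IIa was 4.98, or 5.80 without MFB15. Dscam2, an immunoglobulin protein of neurite repulsion, had a median of 0 in female VGlut-high cells, with a highest value of 718 CPM, and 10 of the 85 had 100 CPM or more. It stood at 354, 399.5, 574, 427 and 392 CPM in the mutant female VGlut-low cells and at 391 and 453 CPM in the wild-type ones. The log2 ratios of Dscam2 were -4.05 in mutant and -3.15 in wild-type females (edgeR adjusted p = 0.639).

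Outside the lists, the gene of nitric oxide synthase, Nos, was lower in VGlut-high cells. It was at 10 CPM or more in 10 of 85 female and 20 of 81 male VGlut-high cells. In the mutant female VGlut-low cells it stood at 1201, 843, 0, 1161 and 1928 CPM and in the wild-type ones at 1080 and 1042 CPM, and 5 of the 166 VGlut-high cells reached the lowest of the 6 that held it. The log2 ratios of Nos were -3.88 in mutant and -3.98 in wild-type females (edgeR p = 0.00016, adjusted p = 0.428).

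Lac, which encodes the adhesion protein Lachesin, had a median of 0 and a highest value of 192.6 CPM in female VGlut-high cells. In the mutant female VGlut-low cells it stood at 487, 541, 0, 419 and 481 CPM and in the wild-type ones at 471 and 445 CPM. The narrow range of Lac in the 6 cells, 419 to 541 CPM, was matched by 1 of the 166 VGlut-high cells. Lower in VGlut-high cells by the naming rule were also qm, a geranylgeranyl diphosphate synthase, with log2 ratios of -2.22 and -2.72, and smal, with -2.42 and -2.33, in mutant and wild-type females. Both were read in most VGlut-high cells too, at female medians of 89.1 CPM (qm) and 40.4 CPM (smal), so that they differed in level rather than in presence.

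**Figure D3:**
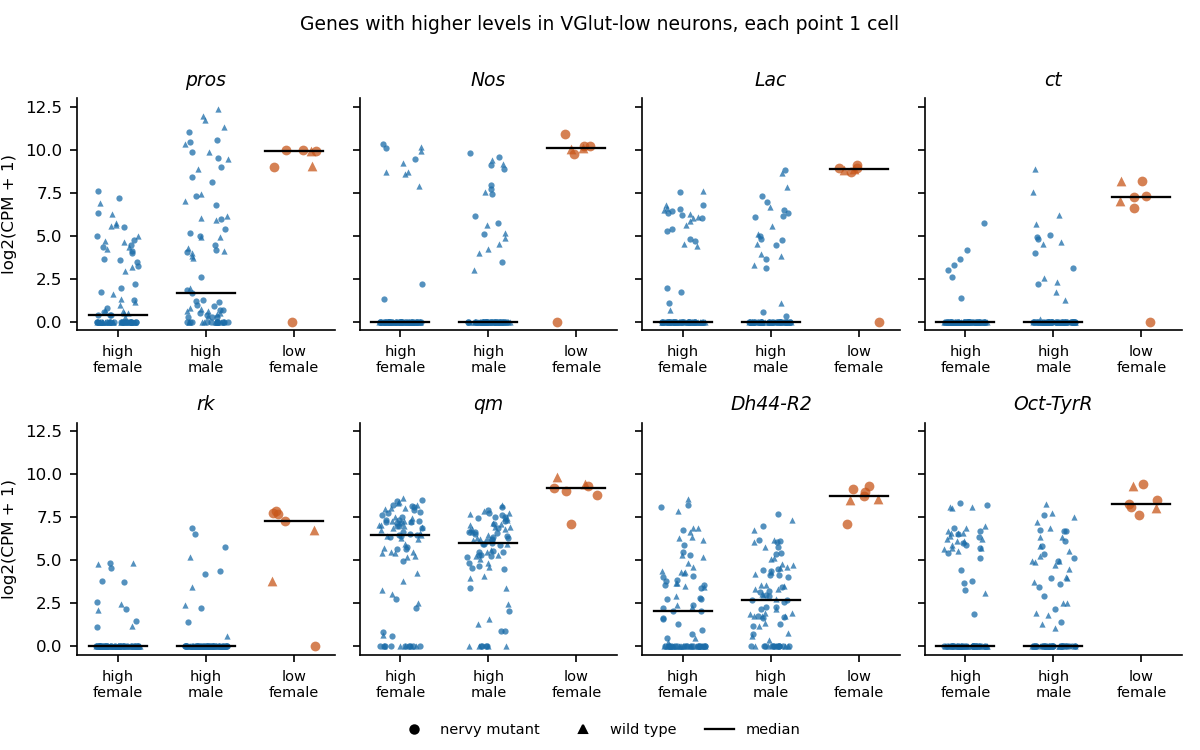
CPM on a log2(CPM + 1) scale of 8 genes with higher levels in VGlut-low neurons, in female VGlut-high, male VGlut-high and VGlut-low cells, with circles for nervy mutants, triangles for wild type and bars at medians. In the panels of pros, Nos, Lac, ct and rk the VGlut-low cell at 0 is MFB42, and the other 6 lie above most VGlut-high cells.

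The panels of genes with higher levels in VGlut-low neurons show 6 cells above most VGlut-high cells in every panel, with MFB42 at 0 in 5 of the 8. Over all 5354 genes, the 6 VGlut-low cells with Tbh lay above all 85 female VGlut-high cells for 6 genes (0.112%), namely qm, smal, CG34234, ct, Lac and pros, and below all of them for 0 (0.00%). They lay above all 166 VGlut-high cells for 3 genes (0.0560%), qm, smal and CG34234. For all 7 VGlut-low cells the count was 0 in each direction (0.00%). These genes were singled out after their values were seen.

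A set of 8 genes was chosen because they were read in these VGlut-low cells and in few VGlut-high ones: rk, CG34234, ct, Nos, zfh1, pros, Lac and fred, of which fred encodes an immunoglobulin protein. Counts of the 8 in those cells therefore describe the choice and support nothing. The 166 VGlut-high cells held a median of 1 and at most 6 of the 8 at 10 CPM or more, while all 6 VGlut-low cells with Tbh held all 8. MFB42 read 2 of them. The mutant female cell MFB47, which lay between the thresholds at 11.2 CPM of VGlut, read all 8, with 1552 CPM of pros, 908 CPM of Nos and 365 CPM of Lac. The other cell between, MMD6, read 1 of the 8 and had 200 CPM of Tdc2.

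The 6 cells did not stand apart in their whole profile. Over 7506 genes, the log2(CPM + 1) values of VGlut-high cells had a median correlation of 0.54 among themselves, and those of the 6 cells had one of 0.55 among themselves (0.54 to 0.57) and of 0.53 with VGlut-high cells. All cells share the assay, so these values describe likeness and are not a test. The highest correlation of MFB42 was with a VGlut-high cell, at 0.64. This was not particular to MFB42, since it held for all of the 6 cells but WFB16, and VGlut-high cells were far more numerous. WFB2, for example, reached 0.60 with a VGlut-high and 0.57 with a VGlut-low cell. By medians, MFB42 had 0.56 with VGlut-high and 0.54 with the other VGlut-low cells, while each of the 6 had the higher median with VGlut-low cells. No pair of nearly identical columns held any of the 7, so they were not copies of 1 cell.

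On the other side, the genes higher in VGlut-high cells included some read widely. GstS1, a glutathione S-transferase, was read in 71 of 85 female VGlut-high cells at a median of 143 CPM and in 67 of 81 male ones at 173 CPM, and at 0 in all 7 VGlut-low cells, at least 347-fold lower than in female VGlut-high cells. eys, which encodes an extracellular matrix protein known from the photoreceptors of the eye, was read in 63 of 85 female and 58 of 81 male VGlut-high cells, at medians of 111.4 and 118 CPM. It was at 0 in all 7 VGlut-low cells, which makes it at least 499-fold higher in female VGlut-high cells (edgeR adjusted p = 0.639 for both genes). The 9 photoreceptor markers examined summed to a median of 115.7 CPM (0 to 359) in female VGlut-high cells. In VGlut-low cells their sum had a median of 93.7 CPM (0.986 to 424). Of the 9, 2 were at 0 in all 85 female VGlut-high cells and 6 in all 7 VGlut-low cells, with ninaE among both.

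IA-2, a transmembrane protein of dense-core vesicles, was read in every cell. It had a median of 11087 CPM in female VGlut-high cells, against 4122, 5281, 2083, 5115 and 3702 CPM in the mutant female VGlut-low cells and 6031 and 4644 CPM in the wild-type ones. The log2 ratios of IA-2 were 1.49 in mutant and 1.13 in wild-type females (edgeR adjusted p = 0.639), and both kinds of cell overlapped. CG15537 was named by the same rule. It was read in 16 of 85 female and 22 of 81 male VGlut-high cells and at 0 in all VGlut-low cells. Its summed level was at least 618-fold higher, a bound that leaves out the sampling of cells. CG31814 was read in 31 and 28 cells and had log2 ratios of 3.77 in mutant and 3.98 in wild-type females. Of the VGlut-low cells it was read in MFD1 at 78.2 CPM and in WFB2 at 18.4 CPM, and its mean log2 ratio of 3.87 was 5.41 without MFD1 and 5.87 without WFB2.

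**Figure D4:**
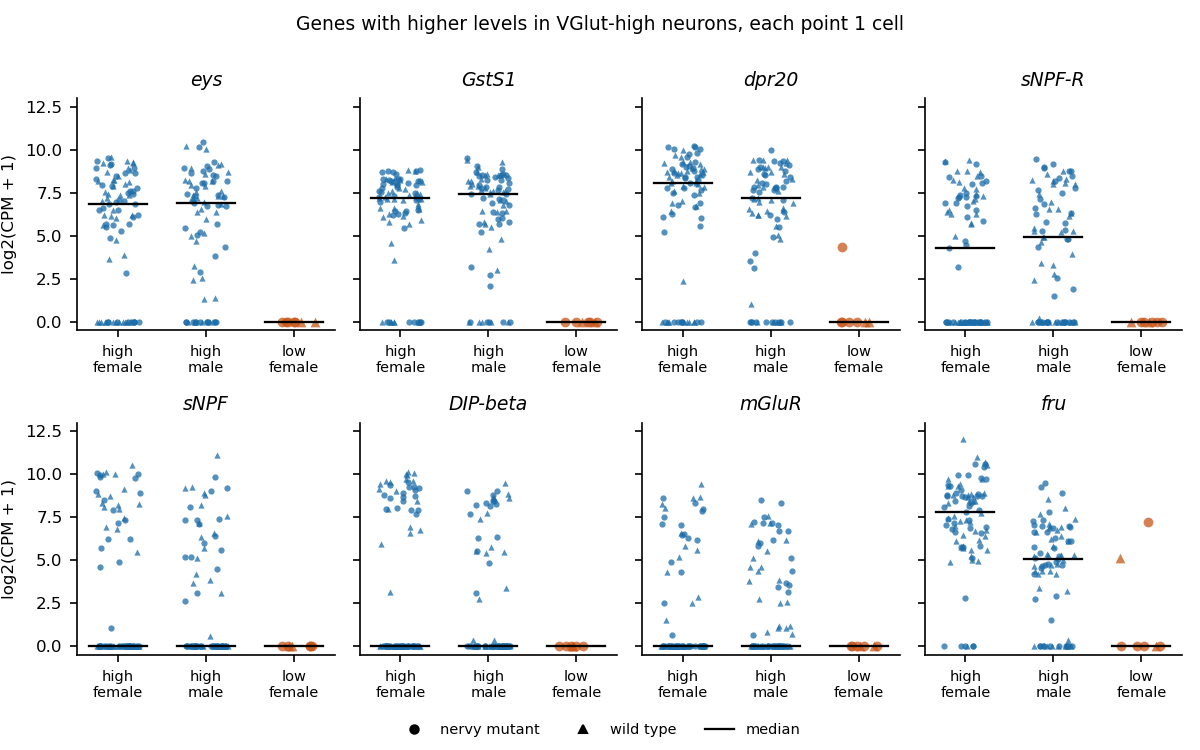
CPM on a log2(CPM + 1) scale of 8 genes with higher levels in VGlut-high neurons, in female VGlut-high, male VGlut-high and VGlut-low cells, with circles for nervy mutants, triangles for wild type and bars at medians. For eys, GstS1, sNPF-R, sNPF, DIP-beta and mGluR all 7 VGlut-low cells lie at 0, as does a share of the VGlut-high cells.

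The panels of genes with higher levels in VGlut-high neurons show that most of these genes were read in some VGlut-high cells and absent from others. A cell at 0 for 1 of them is therefore not unusual among VGlut-high cells. Taking only genes at 10 CPM or more in at least 75% of female VGlut-high cells and in at most 1 VGlut-low cell gave 15 of 5354 genes (0.280%). They were robo3, dpr20, Sk2, CG13654, PKD, GstS1, nrm, CG42674, cib, CR45109, Frq2, Con, 2mit, btsz and CG42324, and CR45109 lies wholly within exons of 2mit. Male VGlut-high cells, which had no part in the choice, read a median of 13 and at least 3. The VGlut-low cells read 0 or 1 of the 15, except MFB42, which read 11. These counts follow largely from the choice of the 15, which allowed at most 1 VGlut-low cell per gene. Without MFB42 the mean log2 ratios of 2mit, CG42324 and CR45109 were 6.995, 7.25 and 6.70, in place of 5.68, 5.31 and 5.51.

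The mirror rule, at 10 CPM or more in at least 6 VGlut-low cells and in at most 15% of female VGlut-high cells, gave 6 genes (0.112%): rk, CG34234, ct, Nos, zfh1 and fred. The 81 male VGlut-high cells read a median of 1 of the 6 and at most 4. The cell MFB47 read 1 of the 15 and all 6 of these genes, like the VGlut-low cells with Tbh, and MMD6 read 4 of the 15 and 0 of the 6.

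Lists of general neuronal and cellular function held 0 genes past 4-fold in both groups, beside 1.44% of all genes higher and 0.560% lower, so that the 0 of these lists lies near the share over all genes. The 22 genes of synaptic vesicle machinery had a median log2 ratio of -0.01, the 82 ribosomal protein genes 0.08 and the 12 heat shock and stress genes 0.34, beside 0.03 over all genes. Among the vesicle genes Sap47, which encodes a synapse-associated protein, had log2 ratios of 0.57 in mutant and 0.50 in wild-type females. Of 7 activity-regulated genes CG8910 passed 4-fold, with 43 of 85 female VGlut-high cells and 2 of 7 VGlut-low cells at 10 CPM or more.

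Markers of other cell types were examined in the same cells. Glial markers summed to a median of 142 CPM (0 to 1402) in female VGlut-high cells and 76.4 CPM (7.88 to 1079) in VGlut-low cells, with 3 of 11 markers at 0 in all VGlut-low cells and the glial factor repo at 6.74 CPM at most. In male VGlut-high cells the median was 168.2 CPM and the highest sum 116743 CPM. The glial glutamine synthetase gene Gs2 reached 89272 CPM there, the glial transporter Eaat1 was at 100 CPM or more in 12 of 81 and repo in 3 of 81, so some male VGlut-high libraries held much RNA of glial genes, while repo was at 22.6 CPM at most in female ones. Hemocyte markers summed to a median of 21.5 CPM (0 to 800) in female VGlut-high cells and 170.98 CPM (154 to 502) in VGlut-low cells. This sum came almost wholly from Pxn, which was at 154 CPM or more in all 7, since Hml was at 1.13 CPM in 1 of them and 0 in the others, and NimC1 and Sr-CI were at 0. Muscle markers summed to at most 0.531 CPM and dopaminergic markers to at most 0.177 CPM in VGlut-low cells. The part of other cells' RNA in the differences was not tested. The count of 107 genes was 108 without cells with 10 CPM or more of repo. It rests on female cells alone, which the male libraries with much glial RNA never entered, so the 108 says little about such RNA.

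Among the VGlut-high neurons themselves, genes were ranked by their correlation with VGlut. The genes named here were picked by that ranking, so their values within parts of the same cells describe the choice and are not a test. Over 166 cells and 5915 genes, the highest rank correlations with VGlut were 0.59 for mbl, 0.59 for DIP-theta, 0.57 for CG18641, 0.50 for beat-IIIb and 0.46 for fas. mbl encodes Muscleblind, an RNA splicing regulator, and beat-IIIb and fas encode immunoglobulin proteins of the cell surface. In the 41 cells with the most VGlut, mbl had a median of 2713 CPM, against 862 CPM in the 41 with the least. The 7 VGlut-low cells had 752 CPM (MFB15) to 4768 CPM (MFB42) of mbl, levels that VGlut-high cells also had. The correlation of mbl was 0.55 in mutants and 0.59 in wild type among females, and 0.57 in mutants and 0.63 in wild type among males. CG18641 overlaps VGlut and stood at 14.3 CPM in the 41 cells with the most VGlut, so its reads may not be separate from those of VGlut.

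DIP-theta was read in a part of the VGlut-high cells, and those cells had more VGlut. It was at 10 CPM or more in 92 of 166 cells, whose median VGlut was 1433 CPM, against 676 CPM in the others. The order was the same in each group, with 1078 against 832 CPM in female mutants, 1621 against 650 CPM in female wild type, 1455 against 580 CPM in male mutants and 1438 against 665 CPM in male wild type. beat-IIIb gave the same order in each group, with medians of 1455 CPM in the 89 cells that held it and 817 CPM in the others. Without the cells of nearly identical pairs, the correlations of DIP-theta and beat-IIIb were 0.57 and 0.49 in the remaining 143 cells, which had also served to pick both genes. The cells that held DIP-theta had a median of 797650 reads, against 1010382 in the others. Of the VGlut-low cells, 1 held DIP-theta and 5 held beat-IIIb, so neither gene was read in VGlut-high cells alone.

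**Figure D5:**
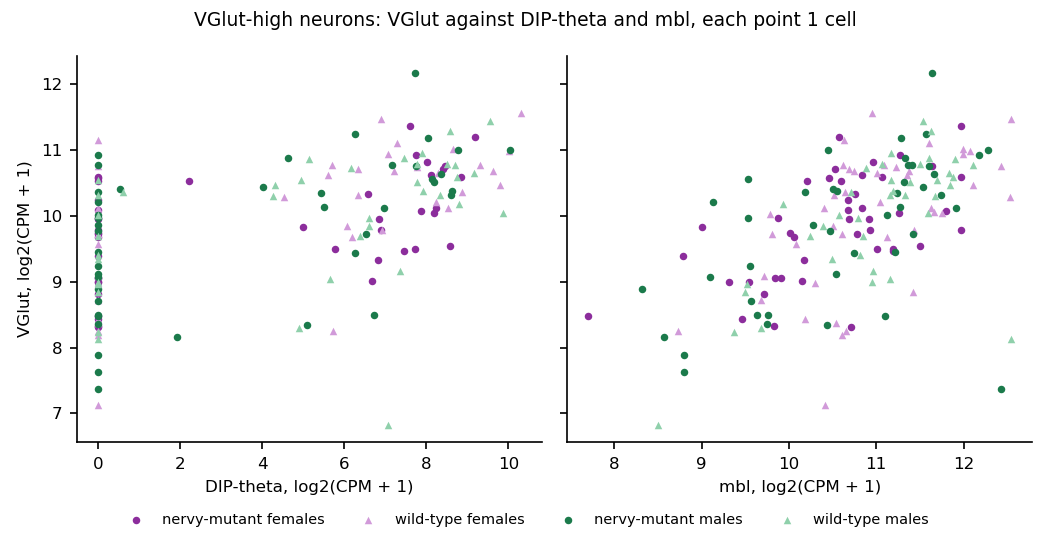
VGlut against DIP-theta (left) and mbl (right) in the 166 VGlut-high neurons, both axes as log2(CPM + 1), with colors and symbols for genotype and sex. Cells without DIP-theta form the column at 0, where VGlut is mostly lower, and VGlut is higher where mbl is higher, in all 4 groups.

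The plot of VGlut against DIP-theta and mbl shows that the 2 relations differ in shape. mbl was read in all 166 cells and graded, while DIP-theta was present in some cells and absent from others. VGlut-high neurons also fell into subsets by transcription factor and peptide, with different VGlut levels. The 56 cells with salr, a zinc-finger factor, had a median of 1483 CPM of VGlut, against 896 CPM in those without. The 61 cells with sNPF had 1335 CPM, against 883 CPM, and the 21 with the POU factor nub had 1541 CPM, against 1004 CPM. In each of these 3 subsets the order was the same in all 4 groups.

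Other subsets had less VGlut than the remaining cells. The 89 VGlut-high cells with sNPF-R had a median of 848 CPM, against 1319 CPM in those without, and the 72.9% of cells with eys had 932 CPM, against 1269 CPM, with this order in all 4 groups for both genes. The 56 cells with mirr had 715 CPM, against 1187 CPM, in the same order in 3 of the 4 groups. Since sNPF-R, eys and mirr were at 0 in every VGlut-low cell, the genes that VGlut-low cells lacked included some tied to higher and some tied to lower VGlut among VGlut-high cells.

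The subsets overlapped in a regular way. Of the 56 cells with ara, 51 also held caup (91.1%, against 40.96% of all 166), and those 51 were 75% of the 68 with caup. With salr, 47 of 56 were shared in each direction, while only 15 of the 56 with ara held mirr (26.8%, against 33.7% of all). Of 21 cells with nub, 19 held pdm2. Of 61 cells with the peptide sNPF, 41 held DIP-beta (67.2%, against 35.5% of all), and 16 held the receptor sNPF-R (26.2%, against 53.6% of all). The peptide and its own receptor were thus mostly in different VGlut-high cells, and the 7 VGlut-low cells held neither.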

How the data were processed

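Single neurons were sorted from brains into 96-well plates and sequenced in 24 pools of 12 libraries with paired-end reads of 75 bases, per the labels' protocols. The deposited values are estimated counts per gene in steps of 0.5, of which 56.2% of those above 0 are whole numbers. The authors counted exon reads per gene with HOMER on dm6, raw and condensed by gene, per the file headers, and the submitters' processing notes also name FastQC and edgeR. The aligner, versions and strand handling are not given in the sources used here. Reads were amplified without molecular identifiers, so intervals and the limit of 3 counts for a value of 0 cover counting error only.

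CPM was computed over 17104 listed genes, which held a median of 92.1% of each library's stated total. Columns whose log2(CPM + 1) values over the 7500 genes averaging 5 CPM or more had a Pearson correlation of 0.95 or above were called nearly identical. Those of 1 group were averaged, giving 189 cells. The members and gene lists were chosen with earlier results of these data known. No doublet caller was run, and the 14 cells with under 100 CPM of Tdc2 were left out of the comparisons.

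The planned fit needed groups with at least 3 cells of each kind, which only mutant females had, leaving no residual degree of freedom. It was replaced by the rule of at least 4-fold, with a pseudocount of 1 CPM and a mean of at least 20 CPM, and by an added edgeR fit of summed counts, rounded to whole numbers, with the group as a block. VGlut and Tdc2 were left out. The block pairs VGlut-high and VGlut-low sums of the same group of cells. Among genes with the same sign in both groups, with and without each library's top cell, the 8 with the smallest p on each side were named, besides genes and list members set by name and up to 4 per list by p. Other genes were singled out after their values were seen, among them those tied to VGlut within the VGlut-high cells.

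DESeq2 and limma were run as alternatives, with other thresholds, filters and subsets of cells, and the scripts were tested on simulated data. Python 3.11.15, numpy 2.4.6, pandas 2.3.3, scipy 1.17.1, matplotlib 3.10.9, R 4.3.3, edgeR 4.0.16, limma 3.58.1 and DESeq2 1.42.0 were used.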

Additional observations from a re-analysis of the deposited data

Results flagged for a closer look

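Among the 5 mutant female VGlut-low cells, MFB42 lay far from the others in 3 measures. It had 6452 genes with a read, where the next cell had 5561 and the lowest 5218. Its Tbh was 0, where the next cell had 10452 CPM and the highest 13751 CPM. Its Lac was 0, where the next cell had 419 CPM and the highest 541 CPM. The cell MFD1 stood alone with CG31814 at 78.2 CPM, which was 0 in the other 4. A cell was called far from the others past Dixon's 95% critical value, which by its construction marks about 1 in 20 sets by chance. Of 19 sets of values looked at, 4 were marked, and some sets were of genes named for their values.

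The ratio of Trh, VGlut-high over VGlut-low, ran in opposite directions, at 5.69 on the log2 scale in mutant females and -5.48 in wild-type females. The reads came from few cells, with up to 6944 CPM in a mutant female VGlut-high cell and 55.4 CPM in the wild-type VGlut-low cell WFB2, and the difference between the groups was not tested.

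Of 14 cells with under 100 CPM of Tdc2, which the comparisons did not use, 10 had at least 100 CPM of VGlut, between 221.5 and 3560 CPM, and the other 4 had 0.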

How the results depend on the processing

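The share of VGlut-high cells, 94.9%, became 78.3% with 500 CPM as the threshold and stayed between 94.1% and 96.2% under 9 other alternatives. The share of tested genes past 4-fold in 1 direction in both female groups, 1.9985%, became 5.33% with a minimum mean of 1 CPM, 3.84% with no minimum, 1.21% with a minimum of 100 CPM, 3.27% with the mean of per-cell log2(CPM + 1), 1.25% with VGlut-low taken as under 100 CPM, 3.18% with only cells of at least 100 CPM of Tbh, 24.3% in the single comparison among cells numbered 1 to 96, and 4.53% without each library's top cell for the gene. Leaving out a group or a VGlut-low cell gave 1.89% to 13.9%, with 13.9% from wild-type females alone, 4.82% from mutant females alone and 3.17% without MFB42. Under VGlut-low as under 100 CPM, which adds a male pair and MFB47, the log2 ratio of qm was 0.48, and among cells numbered 1 to 96 that of NPFR was -0.24; the cause was not tested. Of the 77 genes higher, 1 changed sign under at least 1 of 27 alternatives, and of the 30 lower, 11 did. Among those 11, CG1542, Elp2, FAM21, apt, bs, del and puc changed sign when WFB2 was left out. In the fit of both female groups, the share of 0% became 6.93% with DESeq2, 4.15% with a minimum of 100 CPM, 0.706% with limma on mean CPM per cell and 3.49% with limma on mean log2(CPM + 1) per cell. It stayed 0 without each VGlut-low cell. The main ratios and fit held no male cell, so leaving out males could change neither. With no replicate block the share was 0, with a smallest adjusted p of 0.0722. Fits without either female group or among cells numbered 1 to 96 could not be made, as no residual degree of freedom remained. The 7 VGlut-low cells limit every ratio, and their depths of 326169 to 2824296 reads limit what a value of 0 shows to at most 9.20 CPM.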
